A study of Mus musculus with 8 samples.

Results

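Cholesterol and fatty acid synthesis was followed through 32 genes, taken by symbol from the 55536 genes of the count table. They were 18 enzymes of sterol synthesis, 6 genes of the sterol-sensing system and sterol transport, 4 enzymes of fatty acid synthesis and elongation, and 4 desaturases. Each symbol matched 1 row, and all 32 genes were tested, with at least 268 counts in every library. The list is a choice among the genes of these pathways, and other lipid genes are described after it.

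The libraries came from MIN6, a line of mouse insulinoma cells that keep making insulin, given as wild type in the labels. Polyadenylated RNA was sequenced 48 h after the plasmids had been delivered with Lipofectamine 3000, a lipid carrier. Control cells were given empty pcDNA 3. The Klf4 group was given pGloMyc-Klf4, from which the zinc-finger transcription factor Klf4 is expressed. Each group had 4 biological replicates, 2 in each of 2 batches named in the labels, and the series asks what misexpressed Klf4 does to the β-cell transcriptome. The plasmids differ in name beyond the insert, so backbone and Klf4 cannot be told apart. All libraries are of 1 cell line and of whole cultures, in which transfected and untransfected cells were not separated. The extraction text speaks of isolated islets, while every sample is named as MIN6. Total counts were 45417853 to 52731176 per library. Klf4 itself was at 40.1 ± 3.11 CPM with the empty vector and 5040.0 ± 567 CPM with the Klf4 plasmid (SD, n = 4), plasmid and endogenous transcripts together. Of 10 β-cell markers, all were above 1 CPM in both groups, and their summed level was 25330 to 32110 CPM in control and 23660 to 32360 CPM in Klf4-transfected libraries. By edgeR 5 of the 10 fell and 0 rose, with 0 higher at an unadjusted p under 0.05, while 15.5% of all tested genes fell and 21.1% rose.

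Cells make cholesterol from acetyl-CoA through mevalonate, isoprenoid diphosphates, squalene and lanosterol, and they make saturated fatty acids from the same acetyl-CoA, which are then elongated and desaturated. Both routes are under transcription factors of the SREBP family, encoded by Srebf1 and Srebf2. Scap carries SREBP out of the endoplasmic reticulum for cleavage when sterol is low, and Insig proteins hold the pair back when sterol is high. In β-cells, cholesterol content and fatty acid synthesis are known to bear on granule membranes and insulin secretion.

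Differences between the plasmids were small in all 32 genes. By the quasi-likelihood test of edgeR, with Benjamini-Hochberg adjusted p under 0.05, 8 rose, 4 fell and 20 did not pass. The 12 called genes were 37.5% of the list, against 36.6% of all 18266 genes tested. For rises the shares were 25% of the list and 21.1% of all tested genes, and for falls 12.5% and 15.5%. Among the 10753 tested genes at least as abundant as the least abundant of the 32, 43.3% were called, 19.2% higher and 24.1% lower. The shares of the list lie near those of all tested genes, while its share of falls is below that of genes of such abundance. That difference was not tested, and the number of calls is taken as no result about these genes. In cultures measured whole, fewer cells with a transcript and less of it per cell cannot be told apart. The median log2 fold change (Klf4-transfected over control) was 0.040 over the 32 genes and -0.014 over all tested genes. The log2 fold changes ran from -0.10 for Lss to 0.27 for Mvd, a span of -6.94% to 20.6%. The log2 fold change was below 0 in 10 of the 32 genes and in 53.2% of all tested genes, and it was lower in batch 2 than in batch 1 in 19 of the 32 and in 49.6% of all tested genes. No member both passed the threshold and changed by 0.5 or more on the log2 scale, as 12.7% of all tested genes did, and 5.2% of the 10753 genes at least as abundant as the least abundant member. A count of 0 among 32 genes is near the latter share. Standard errors were 0.020 to 0.080 on the log2 scale. Among the 20 genes that did not pass, the 95% intervals reached from -0.21 (Fdps) at the lowest to 0.22 (Idi1) at the highest.

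**Figure D1:**
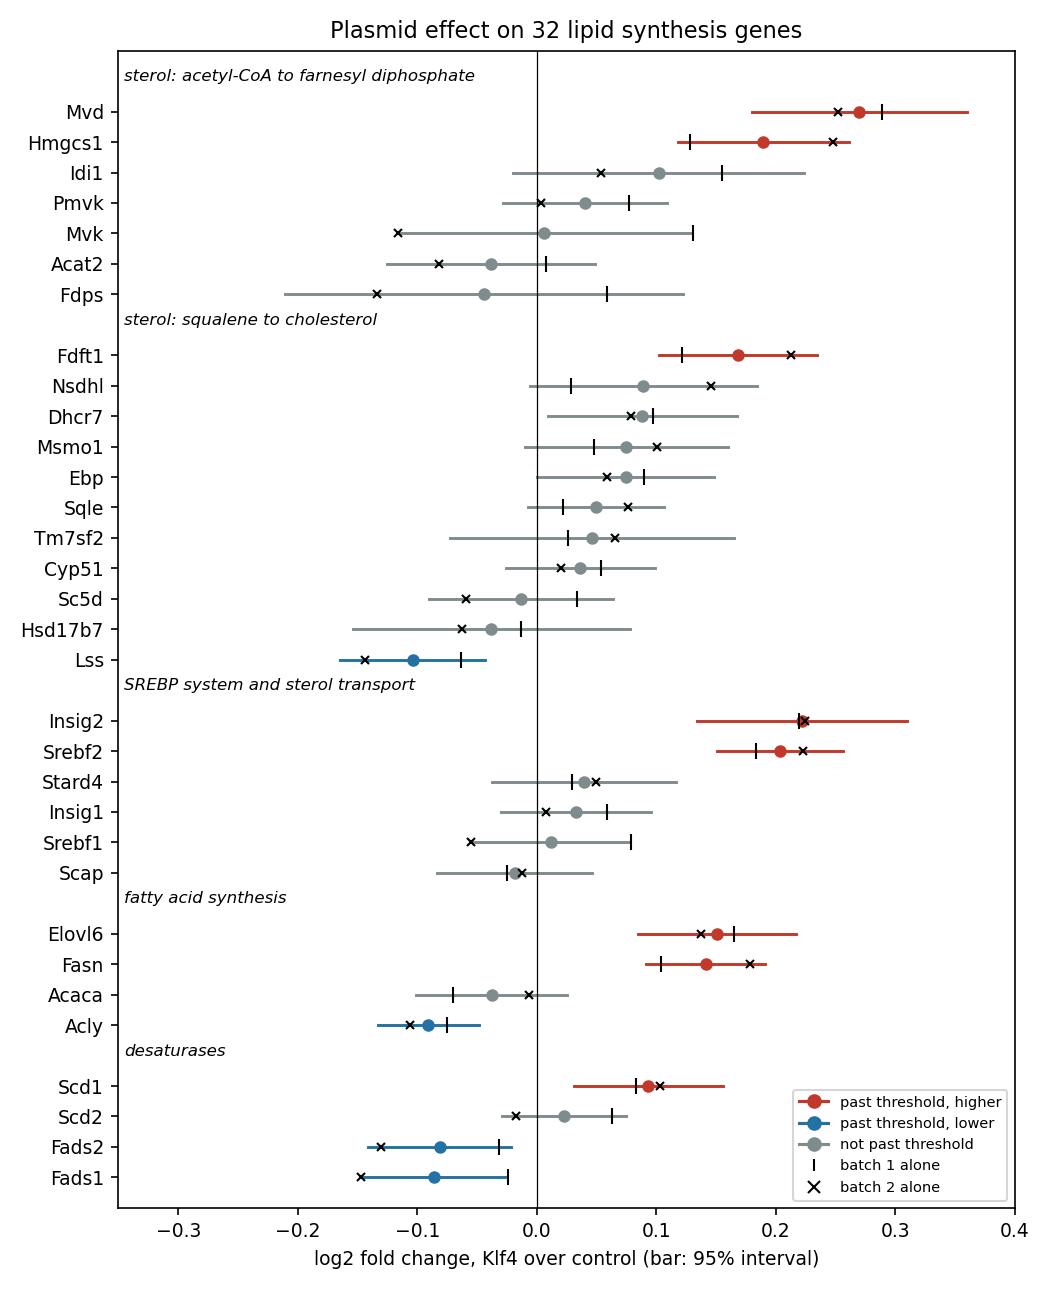
Log2 fold change of each of the 32 genes, Klf4-transfected over control libraries (x axis, log2), by role (y axis). Circles are the fit with batch as a term on 4 libraries per group and bars its 95% interval; ticks and crosses are the values within batch 1 and batch 2. All circles lie between -0.10 and 0.27.

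The number of rises and falls depended on the scaling. Over all tested genes 57.7% of calls were rises with TMM factors and 72.7% with factors from abundant genes, which moved the median of all genes up by 0.035 on the log2 scale. With those factors 13 members were called higher and 1 lower. Without the batch term 1 member was called, Insig2, with 0 lower by edgeR (3 higher and 1 lower at an unadjusted p under 0.05), and 71.8% of all calls were rises.

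Levels per kilobase of annotated exon differed widely within the pathway. In control libraries Acly was highest at 904 CPM per kb, followed by Scd2 at 427, Fads2 at 140.0, Fads1 at 91.1 and Fasn at 74.2 CPM per kb. Of the regulators, Insig1 was at 63.8, Srebf1 at 54.1 and Srebf2 at 30.7 CPM per kb. Among sterol enzymes Pmvk was highest at 49.2 CPM per kb, then Cyp51 at 38.9 and Hmgcs1 at 33.5. Fdps was lowest of the 32 at 1.66 CPM per kb. For Fdps, 26.2% of the 50-base stretches of its transcripts also occur in transcripts of other genes, so its level is uncertain. The same holds for Acat2, which shares 39.1% of such stretches with its near-copy Acat3, and for Acaca (30.4%) and Idi1 (17.7%), which share theirs with predicted genes among others.

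The SREBP system was represented by both transcription factor genes, both Insig genes and Scap. Srebf2 (ENSMUSG00000022463, chromosome 15, 82147181 to 82205379, plus strand, GRCm38), whose product drives the sterol enzymes, was at 197, 197, 246 and 242 CPM in control replicates 1 to 4 and 224, 224, 282 and 287 CPM in Klf4-transfected replicates 1 to 4. In each batch both Klf4-transfected libraries lay above both controls, while the groups overlapped across batches. Srebf2 rose by 15.2% (log2 fold change 0.20 with SE 0.025, adjusted p 8.11e-07 in edgeR), with log2 fold changes of 0.18 in batch 1 and 0.22 in batch 2. Insig2 (ENSMUSG00000003721, chromosome 1, 121304353 to 121332589, minus strand), which retains the SREBP-Scap complex, was at 39.9, 43.3, 43.5 and 43.9 CPM with the empty vector and 48.6, 48.3, 54.2 and 47.9 CPM with Klf4. All Klf4-transfected libraries lay above all controls. Insig2 rose by 16.6% (log2 fold change 0.22 with SE 0.042, adjusted p 0.000211 in edgeR), with log2 fold changes of 0.22 in batch 1 and 0.22 in batch 2, and it was 1 of 2 members whose Klf4-transfected libraries all lay above the controls, a pattern shown by 17.2% of tested genes.

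The other genes of this system did not pass. Srebf1 (ENSMUSG00000020538, chromosome 11, 60199089 to 60222581, minus strand), whose products act mainly on fatty acid genes, was at 299, 292, 322 and 307 CPM with the empty vector and 307, 316, 291 and 314 CPM with Klf4. The groups overlapped, and the log2 fold change was 0.012 (95% interval -0.055 to 0.078, edgeR adjusted p 0.823), with 0.079 in batch 1 and -0.055 in batch 2. Isoforms of Srebf1 cannot be separated in a count per gene. Insig1, a direct SREBP target as well as a retention factor, was at 180.4, 175, 215 and 219 CPM with the empty vector and 178, 193, 222 and 214 CPM with Klf4. Here the libraries separated by batch and not by plasmid (log2 fold change 0.033, 95% interval -0.029 to 0.10, edgeR adjusted p 0.436). Scap was at 109, 114, 123 and 116 CPM with the empty vector and 108, 111, 115 and 121 CPM with Klf4, again with overlap. Its log2 fold change was -0.018 (95% interval -0.083 to 0.046, edgeR adjusted p 0.702). With an offset for GC content and length it was -0.095 and passed (edgeR adjusted p 0.0126), and with factors from abundant genes it was 0.016. Stard4, a carrier of cholesterol between membranes, was at 56.0, 54.0, 63.2 and 61.4 CPM with the empty vector and 55.2, 57.1, 67.7 and 61.3 CPM with Klf4. Its log2 fold change was 0.040 (95% interval -0.037 to 0.12, edgeR adjusted p 0.447). Of the 6 genes 2 rose and 0 fell by edgeR, with 0 lower at an unadjusted p under 0.05 or by the DESeq2 Wald test. Their median log2 fold change was 0.036, and of all tested genes 21.1% rose and 15.5% fell.

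**Figure D2:**
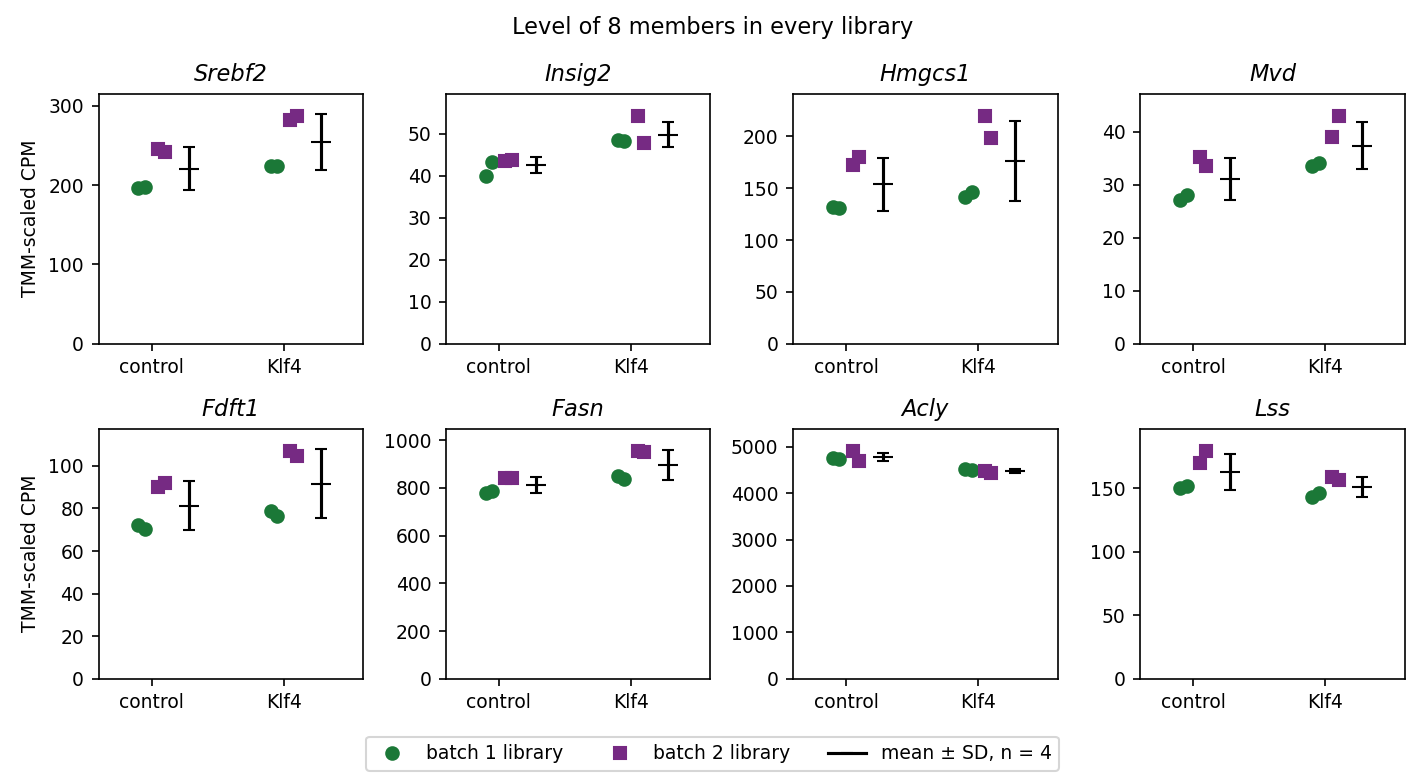
Level of 8 of the called members in each library (y axis, TMM-scaled CPM from 0; x axis, group), circles for batch 1 and squares for batch 2, with the mean ± SD of the 4 libraries beside them. For Srebf2, Hmgcs1 and Fdft1 the batch 2 libraries of each group lie above its batch 1 libraries, and the Klf4-transfected libraries lie above the controls of their own batch.

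Of the 7 enzymes from acetyl-CoA to farnesyl diphosphate, 2 rose and none fell (edgeR; 21.1% of tested genes rose and 15.5% fell). None was lower at an unadjusted p under 0.05 or by the DESeq2 Wald test either. Hmgcs1 (ENSMUSG00000093930, chromosome 13, 119690379 to 119708260, plus strand) makes the HMG-CoA that enters the mevalonate route. It was at 132, 131, 172 and 180.0 CPM in control replicates 1 to 4 and 142, 147, 219 and 199 CPM in Klf4-transfected replicates 1 to 4. Both Klf4-transfected libraries were above both controls in each batch, and the Klf4-transfected libraries of batch 2 differed from each other by about as much as the lower of them differed from the higher control. Hmgcs1 went from 154 ± 25.7 CPM to 176 ± 38.5 CPM (mean ± SD, n = 4) and rose by 14.0% (log2 fold change 0.19 with SE 0.034, adjusted p 0.000123 in edgeR), with log2 fold changes of 0.13 in batch 1 and 0.25 in batch 2. An antisense gene overlaps 12.1% of its exonic bases, and its counts are uncertain to that extent. Mvd (ENSMUSG00000006517, chromosome 8, 122433601 to 122443422, minus strand), which decarboxylates mevalonate diphosphate to isopentenyl diphosphate, was at 27.2, 28.2, 35.2 and 33.6 CPM with the empty vector and 33.5, 34.1, 39.0 and 42.9 CPM with Klf4. It had the highest log2 fold change of the 32 genes, with both Klf4-transfected libraries above both controls in each batch. Mvd rose by 20.6% (log2 fold change 0.27 with SE 0.043, adjusted p 2.67e-05 in edgeR), with log2 fold changes of 0.29 in batch 1 and 0.25 in batch 2, and its exons overlap no other annotated gene.

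The kinases Mvk and Pmvk, the isomerase Idi1, the thiolase Acat2 and the prenyl transferase Fdps did not pass. Their log2 fold changes were 0.0057, 0.040, 0.10, -0.038 and -0.044, with edgeR adjusted p of 0.957, 0.377, 0.19, 0.528 and 0.723. Mvk had opposite signs in the batches, 0.13 in batch 1 and -0.12 in batch 2, a difference that did not pass the interaction test (edgeR adjusted p 0.381). Within each batch its groups did not overlap, with the Klf4-transfected libraries above the controls in batch 1 and below them in batch 2.

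Promoter windows were taken from the RefSeq promoter table (GRCm38.p6). Those of Hmgcs1, Mvd and Srebf2 are given as examples of sterol genes that rose, chosen after their values had been seen. Other called genes also have windows, which are not printed. Those of Insig2 and Fasn (higher) and of Lss and Acly (lower) hold CCAAT matches. Those of Elovl6 (higher) and Fads2 (lower) hold no match to any motif searched. The table held windows of 300 bases, from 250 before to 50 after a start, for 25 of the 32 genes. The bases before the start are printed 5′ to 3′ on the gene's strand, cut for Srebf2 at the earlier GENCODE start. Capitals mark the sterol response element core TCACNCCAC and the NF-Y box CCAAT on either strand (ATTGG on the other).
Hmgcs1, chr13:119690101-119690350, plus strand: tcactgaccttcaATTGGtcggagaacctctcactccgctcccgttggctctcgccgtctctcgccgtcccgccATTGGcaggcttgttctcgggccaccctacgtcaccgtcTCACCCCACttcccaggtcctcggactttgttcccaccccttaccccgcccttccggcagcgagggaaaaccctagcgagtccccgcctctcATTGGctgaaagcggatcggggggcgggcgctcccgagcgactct
Mvd, chr8:122443423-122443672, minus strand: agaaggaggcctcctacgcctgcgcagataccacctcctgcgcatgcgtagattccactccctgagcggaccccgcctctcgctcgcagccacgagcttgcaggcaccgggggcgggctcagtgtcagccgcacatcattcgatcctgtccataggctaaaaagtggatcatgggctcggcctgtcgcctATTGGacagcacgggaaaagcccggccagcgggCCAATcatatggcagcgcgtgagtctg
Srebf2, chr15:82147019-82147180, plus strand: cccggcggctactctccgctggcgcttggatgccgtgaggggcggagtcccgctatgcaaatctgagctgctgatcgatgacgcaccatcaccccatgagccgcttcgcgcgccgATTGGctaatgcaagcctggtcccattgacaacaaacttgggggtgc
The Hmgcs1 sequence holds the only TCACNCCAC match in the 33 windows of members, written TCACCCCAC and starting 137 bases before the RefSeq start, against 1.24% of the 32851 windows of all genes. CCAAT occurred in 21 of the 33 windows (63.6%) and in 37.4% of all windows, and in Fasn a match on one strand overlaps a match on the other. A Klf4-type element, CCACACCC, was found on either strand in 2 of the 33 windows and in 3.56% of all windows. The 2 windows belong to Acat2 and Dhcr7, neither of which passed the threshold, and the 60 bases around each match are given with the match in capitals.
Acat2, chr17:12960876-12960935, minus strand: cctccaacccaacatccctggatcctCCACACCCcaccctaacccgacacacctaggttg
Dhcr7, chr7:143822948-143823007, plus strand: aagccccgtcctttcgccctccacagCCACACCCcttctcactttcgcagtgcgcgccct
A match is a run of letters in a window of this size, and binding was not measured in these libraries.

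Of the 11 enzymes from squalene to cholesterol, 1 rose and 1 fell (21.1% of all tested genes rose and 15.5% fell). Fdft1 (ENSMUSG00000021273, chromosome 14, 63145150 to 63179578, minus strand), which joins farnesyl diphosphate units into squalene, was at 72.4, 70.4, 90.3 and 92.1 CPM with the empty vector and 78.8, 76.5, 107 and 105 CPM with Klf4. Klf4-transfected libraries exceeded the controls of their own batch, and batch 2 exceeded batch 1 in both groups. Fdft1 rose by 12.4% (log2 fold change 0.17 with SE 0.032, adjusted p 0.000192 in edgeR), with log2 fold changes of 0.12 in batch 1 and 0.21 in batch 2. The neighbouring Ctsb overlaps 18.3% of its exonic bases, so part of its count may be of Ctsb. Lss (ENSMUSG00000033105, chromosome 10, 76531588 to 76557138, plus strand), which closes the ring to lanosterol, was at 149.8, 152, 169.9 and 179 CPM with the empty vector and 143, 146, 159 and 157 CPM with Klf4. Within each batch the Klf4-transfected libraries were the lower ones. Lss fell by 6.94% (log2 fold change -0.10 with SE 0.029, adjusted p 0.00745 in edgeR), with log2 fold changes of -0.063 in batch 1 and -0.14 in batch 2. The call was lost with factors from abundant genes (-0.069, edgeR adjusted p 0.0708) and with an offset for GC content and length (-0.063, adjusted p 0.0897).

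Sqle, the squalene epoxidase that opens the oxygen-dependent part of the route, was at 163, 161, 185 and 183 CPM with the empty vector and 168, 161, 196 and 192 CPM with Klf4, with the groups overlapping in batch 1 (log2 fold change 0.049, 95% interval -0.0076 to 0.11, edgeR adjusted p 0.174). The 8 remaining enzymes did not pass either. The demethylase Cyp51 had a log2 fold change of 0.037, the sterol reductase Tm7sf2 0.046, the oxidase Msmo1 0.075 and the dehydrogenase Nsdhl 0.089. The ketoreductase Hsd17b7 had -0.038, the isomerase Ebp 0.074, the desaturase Sc5d -0.013 and the last reductase Dhcr7 0.088, with edgeR adjusted p between 0.0754 (Dhcr7) and 0.83 (Sc5d). Ebp was at 52.8, 51.8, 53.4 and 49.9 CPM with the empty vector and 56.6, 54.7, 53.8 and 53.9 CPM with Klf4, and although its groups did not overlap it missed the threshold (edgeR adjusted p 0.112). With factors from abundant genes, where 72.7% of all calls were rises, Sqle, Msmo1, Nsdhl, Ebp and Dhcr7 were called higher. The offset for GC content and length gave calls higher for Sqle, Cyp51, Msmo1, Nsdhl and Ebp. Dhcr7 was also called with genes filtered at 1 CPM in at least 4 libraries and without control replicate 4. Of the 18 sterol enzymes in all, 13 had a positive and 5 a negative log2 fold change, with a median of 0.048.

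Among the 4 genes of fatty acid synthesis 2 rose and 1 fell (21.1% of all tested genes rose and 15.5% fell). Acly (ENSMUSG00000020917, chromosome 11, 100476353 to 100528000, minus strand), which splits citrate into cytosolic acetyl-CoA, was at 4756, 4741, 4898 and 4694 CPM in control replicates 1 to 4 and 4526, 4487, 4485 and 4428 CPM in Klf4-transfected replicates 1 to 4. Every Klf4-transfected library was below every control, which was seen in 8.93% of tested genes and in no other member. Acly went from 4772 ± 87.7 CPM to 4482 ± 40.6 CPM (mean ± SD, n = 4) and fell by 6.09% (log2 fold change -0.091 with SE 0.020, adjusted p 0.00114 in edgeR), with log2 fold changes of -0.075 in batch 1 and -0.11 in batch 2. At 203124 counts or more per library it was the most deeply counted gene of the list. Acaca, the carboxylase that makes malonyl-CoA, did not pass (log2 fold change -0.038, 95% interval -0.10 to 0.026, edgeR adjusted p 0.371).

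Fasn (ENSMUSG00000025153, chromosome 11, 120805846 to 120824547, minus strand), the synthase that builds palmitate, was at 779, 789, 841 and 841 CPM in control replicates 1 to 4 and 848, 837, 953 and 951 CPM in Klf4-transfected replicates 1 to 4. In each batch both Klf4-transfected libraries were above both controls, and the control libraries of batch 2 reached the level of the Klf4-transfected libraries of batch 1. Fasn rose by 10.3% (log2 fold change 0.14 with SE 0.024, adjusted p 5.54e-05 in edgeR), with log2 fold changes of 0.10 in batch 1 and 0.18 in batch 2. Elovl6 (ENSMUSG00000041220, chromosome 3, 129532355 to 129638495, plus strand), which elongates palmitate to stearate, was at 69.9, 67.9, 79.9 and 83.03 CPM with the empty vector and 77.1, 77.4, 91.9 and 87.2 CPM with Klf4. It too separated by plasmid within each batch and rose by 11.02% (log2 fold change 0.15 with SE 0.032, adjusted p 0.000635 in edgeR), with log2 fold changes of 0.17 in batch 1 and 0.14 in batch 2.

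Of the 4 desaturases 1 rose and 2 fell, all by under 7% (of all tested genes 21.1% rose and 15.5% fell). Scd1 (ENSMUSG00000037071, chromosome 19, 44394455 to 44407879, minus strand), which places the first double bond in stearate, was at 173, 174, 223 and 241 CPM with the empty vector and 178, 189.6, 252 and 245 CPM with Klf4. In both groups the batch 2 libraries were the high ones. Scd1 rose by 6.69% (log2 fold change 0.093 with SE 0.030, adjusted p 0.018 in edgeR), with log2 fold changes of 0.083 in batch 1 and 0.10 in batch 2. The call was lost when control replicate 1, 2 or 3 or Klf4-transfected replicate 2 or 3 was left out, with edgeR adjusted p of 0.108, 0.0512, 0.209, 0.101 and 0.1, and without control replicate 3 the log2 fold change was 0.056. Scd2, its paralogue, was the more abundant of the pair per kilobase and did not pass (log2 fold change 0.023, 95% interval -0.029 to 0.074, edgeR adjusted p 0.526). Scd1 and Scd2 share 4.56% and 3.97% of their 50-base stretches with other genes, mainly of the Scd cluster, so reads there could be split between paralogues.

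Fads1 and Fads2, neighbours on chromosome 19, encode the front-end desaturases of polyunsaturated fatty acid synthesis. Fads1 (ENSMUSG00000010663, chromosome 19, 10182888 to 10196877, plus strand) was at 413, 400.4, 466 and 473 CPM with the empty vector and 392.3, 408, 424 and 424 CPM with Klf4. Groups were apart in batch 2 and overlapped in batch 1. Fads1 fell by 5.78% (log2 fold change -0.086 with SE 0.029, adjusted p 0.0211 in edgeR), with log2 fold changes of -0.024 in batch 1 and -0.15 in batch 2, a difference between batches that did not pass (interaction, edgeR adjusted p 0.33). Fads2 (ENSMUSG00000024665, chromosome 19, 10062765 to 10101746, minus strand) was at 419, 406, 504 and 515 CPM with the empty vector and 390.0, 417, 462 and 469 CPM with Klf4, with the same arrangement. Fads2 fell by 5.47% (log2 fold change -0.081 with SE 0.029, adjusted p 0.0306 in edgeR), with log2 fold changes of -0.032 in batch 1 and -0.13 in batch 2. When libraries were blocked by replicate number instead of by batch, the adjusted p for Fads2 was 0.0527 in edgeR. Without control replicate 4 or Klf4-transfected replicate 4 neither gene passed (edgeR adjusted p 0.0652 and 0.0577 for Fads1, 0.0842 and 0.0598 for Fads2), which leaves 2 members called lower. Fads2 was also lost without Klf4-transfected replicate 1 or 3 (0.0691 and 0.0599) and with genes filtered at 1 CPM in at least 4 libraries (0.0522), which leaves 3 members called lower. With factors from abundant genes neither passed (0.165 for Fads1 and 0.227 for Fads2).

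More of these genes differed between the batches than between the plasmids. Batch is a term of the same fit, and its test over all genes was chosen after the values had been seen. Of the 32 genes, 24 were higher in batch 2 than in batch 1 at an adjusted p under 0.05 in edgeR, none was lower and 8 did not pass, while 13.4% of all tested genes were higher and 11.6% lower. The DESeq2 Wald test also gave 24 higher and 0 lower, and no member was lower at an unadjusted p under 0.05. In the same 24 genes both batch 2 libraries exceeded both batch 1 libraries in control and in Klf4-transfected cells, as did 15.3% of tested genes. The median log2 difference (batch 2 over batch 1) was 0.20 over the 32 genes and 0.0069 over all tested genes, and in 26 of the 32 genes the batch difference was larger in size than the plasmid difference, against 44.1% of tested genes.

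By role, 13 of 18 sterol enzymes, 4 of 6 genes of the SREBP system and transport, 3 of 4 genes of fatty acid synthesis and all 4 desaturases were higher in batch 2. The largest batch differences were in Hmgcs1 (0.48), Scd1 (0.43), Fdps (0.42), Fdft1 (0.40), Idi1 (0.36), Scd2 (0.33) and Srebf2 (0.33) on the log2 scale. Acly (-0.00090), Sc5d (0.0090), Hsd17b7 (-0.016), Ebp (-0.033), Pmvk (-0.051), Srebf1 (0.025), Mvk (0.042) and Insig2 (0.074) did not pass. Within the plasmid contrast, 0 of 32 genes had an effect that differed between batches at an adjusted p under 0.05 (edgeR interaction test, against 0.766% of tested genes; 0 also by the DESeq2 Wald test). At an unadjusted p under 0.05 the interaction test gave 3 of 32, Mvk, Srebf1 and Fads1, against 10.6% of tested genes. What differed between the batches apart from the libraries is not given in the sources used here.

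**Figure D3:**
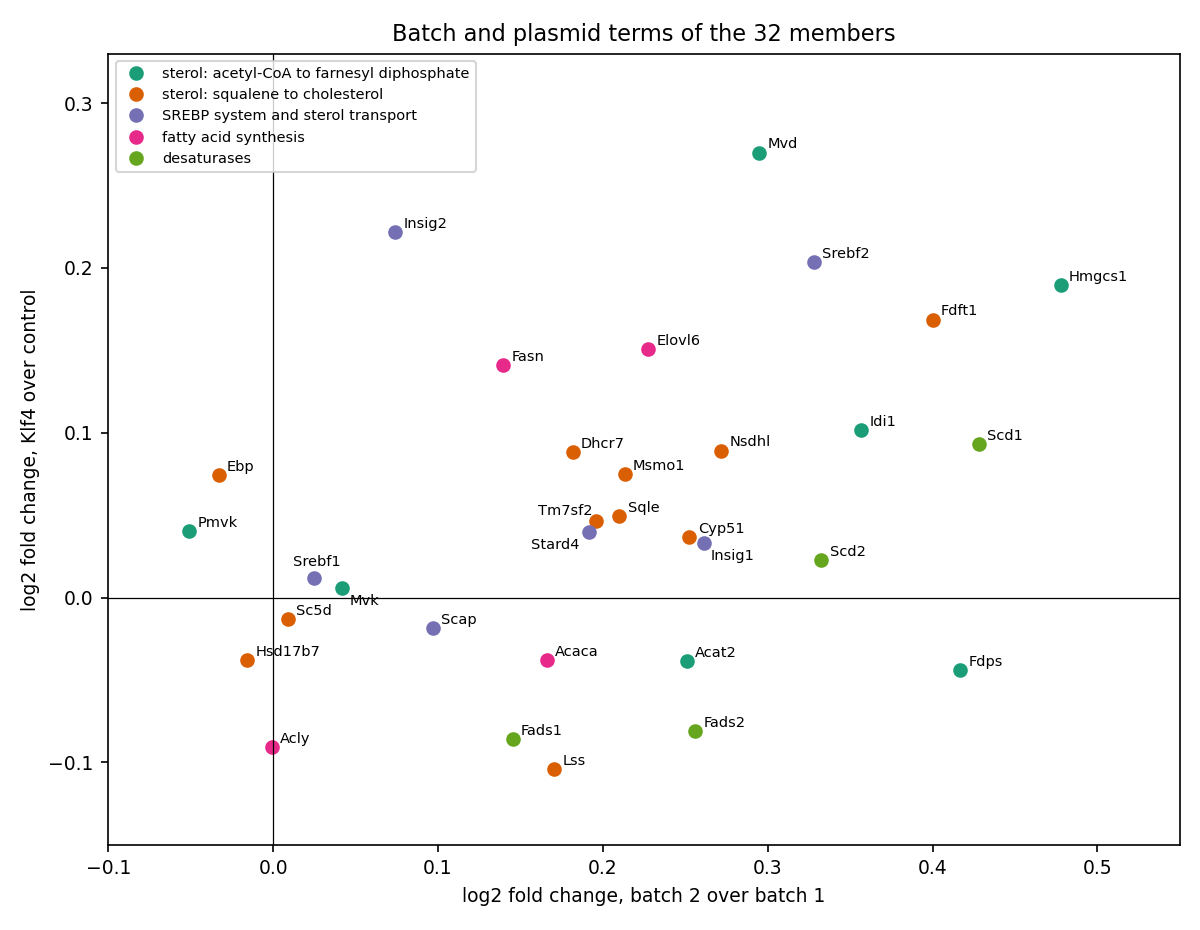
Each of the 32 genes by its batch difference (x axis, log2 of batch 2 over batch 1) and its plasmid difference (y axis, log2 of Klf4-transfected over control), coloured by role, both axes to the same scale. The points spread from -0.051 to 0.48 along the batch axis and from -0.10 to 0.27 along the plasmid axis.

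Changes of larger size were found in some of 103 further lipid genes. The 103 came from 6 lists written with earlier results of these data known and were tested in the same fit. Of the 103, 31 rose, 16 fell and 56 did not pass, with a median log2 fold change of 0.034, against 0.040 in the 32 genes. Calls with a change of 0.5 or more made up 12.7% of all tested genes, and 5.2% of those at least as abundant as the least abundant member. Fads3, Mogat1, Acacb and Nr1h3, described below, were scarcer in control libraries than any member. Of all tested genes 36.6% were called, 21.1% higher and 15.5% lower. Other elongases and desaturases had 6 rises and 0 falls among 16 genes by edgeR, with 1 gene lower at an unadjusted p under 0.05 and 0 lower by the DESeq2 Wald test. Scd3, another stearoyl-CoA desaturase, was at 7.46, 8.15, 9.11 and 8.64 CPM with the empty vector and 23.9, 23.7, 25.3 and 24.9 CPM with Klf4. The groups lay far apart in both batches. Scd3 rose 2.93-fold (log2 fold change 1.55 with SE 0.057, adjusted p 6.87e-16 in edgeR), beside log2 fold changes of 0.093 for Scd1 and 0.023 for Scd2, and it shares 6.54% of its 50-base stretches with other genes, mainly Scd1. Fads3, the neighbour of Fads2 on chromosome 19, was at 3.14, 2.69, 4.24 and 3.62 CPM with the empty vector and 12.04, 10.8, 19.0 and 18.4 CPM with Klf4. The Klf4-transfected libraries of batch 2 were the highest. Fads3 rose 4.40-fold (log2 fold change 2.13 with SE 0.086, adjusted p 3.43e-15 in edgeR), whereas Fads1 and Fads2 had log2 fold changes of -0.086 and -0.081. The elongase Elovl7 rose 2.08-fold, from 11.2 ± 1.48 CPM to 23.1 ± 0.783 CPM (mean ± SD, n = 4) (log2 fold change 1.06 with SE 0.067, adjusted p 9.98e-12 in edgeR).

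Glycerolipid synthesis, which puts fatty acids into triglyceride, had 9 rises and 3 falls among 19 genes (21.1% of all tested genes rose and 15.5% fell). Dgat2, the acyltransferase of the last step, was at 38.6, 37.2, 27.8 and 28.2 CPM with the empty vector and 65.5, 63.4, 70.1 and 75.2 CPM with Klf4. It rose 2.08-fold (log2 fold change 1.07 with SE 0.076, adjusted p 9.17e-11 in edgeR), with log2 fold changes of 0.77 in batch 1 and 1.38 in batch 2, a difference between batches past the threshold (interaction, edgeR adjusted p 1.34e-05). Agpat4 (log2 fold change 0.71 with SE 0.044, adjusted p 8.47e-12 in edgeR) and Mogat1 (log2 fold change 3.62 with SE 0.23, adjusted p 1.3e-11 in edgeR) also rose, Mogat1 from 0.191 ± 0.0610 CPM to 2.39 ± 0.431 CPM (mean ± SD, n = 4). The highest fitted values of this list belonged to scarce genes, chosen here after their values had been seen: Mogat2 had 0, 0, 0 and 2 counts with the empty vector and 21, 22, 35 and 32 with Klf4, and Gpat3 had 9, 7, 0 and 5 counts and 81, 60, 87 and 121. The falls were small: Gpam, the mitochondrial enzyme that starts glycerolipid synthesis, had a log2 fold change of -0.18, Gpat4 -0.10 and Lpin1 -0.12, with edgeR adjusted p of 0.000134, 0.009 and 0.0305. Lpin1 lost its call in 6 of 18 alternatives and Gpat4 in 2, factors from abundant genes among them for both.

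The supply of acyl-CoA and NADPH had 6 rises and 2 falls among 16 genes (21.1% of all tested genes rose and 15.5% fell). The malic enzyme Me1, which makes NADPH, rose from 98.7 ± 8.83 CPM to 136 ± 22.1 CPM (mean ± SD, n = 4) (log2 fold change 0.46 with SE 0.043, adjusted p 1.06e-08 in edgeR), and the acyl-CoA synthetase Acsl1 rose from 21.3 ± 1.59 CPM to 35.3 ± 2.38 CPM (mean ± SD, n = 4) (log2 fold change 0.73 with SE 0.057, adjusted p 4.07e-10 in edgeR). Acacb, the mitochondrial counterpart of Acaca, was at 3.85, 3.37, 2.05 and 2.13 CPM with the empty vector and 5.77, 5.70, 6.39 and 6.03 CPM with Klf4. It rose (log2 fold change 1.09 with SE 0.14, adjusted p 9.93e-07 in edgeR), with log2 fold changes of 0.67 in batch 1 and 1.57 in batch 2 (interaction, edgeR adjusted p 0.0235), where the control libraries of batch 2 were the lowest. Acsl4 and Acsl6 fell, with log2 fold changes of -0.14 and -0.13 (edgeR adjusted p 0.00167 and 0.0151), and Acsl6 lost its call in 3 of 18 alternatives.

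Genes of SREBP cleavage and sterol sensing gave 4 rises and 3 falls among 19, near the shares of all tested genes (21.1% rose and 15.5% fell). The oxysterol receptor genes both rose, Nr1h2 from 49.8 ± 3.35 CPM to 65.6 ± 6.29 CPM (mean ± SD, n = 4) (log2 fold change 0.40 with SE 0.049, adjusted p 8.28e-07 in edgeR) and the scarce Nr1h3 from 0.620 ± 0.178 CPM to 1.78 ± 0.776 CPM (mean ± SD, n = 4) (log2 fold change 1.498 with SE 0.21, adjusted p 4.21e-06 in edgeR). The protease genes that cleave SREBP fell, with log2 fold changes of -0.076 for Mbtps1 and -0.13 for Mbtps2 (edgeR adjusted p 0.0364 and 0.0249), and these calls were not stable. Mbtps1 was lost in 7 of 18 alternatives, among them the replicate block (adjusted p 0.0585 in edgeR), and Mbtps2 in 5. The oxysterol-binding Osbp fell too (log2 fold change -0.11, adjusted p 0.00449). Mlx, a partner of the carbohydrate-response factor, had a log2 fold change of 0.10 (adjusted p 0.029 in edgeR), a call lost in 9 of 18 alternatives, with adjusted p up to 0.218. The branches that leave the mevalonate route had 5 falls among 14 genes. Of all tested genes 15.5% fell, and of those at least as abundant as the least abundant member 24.1% fell. The median log2 fold change of this list was -0.11, and 1 gene was called higher. That gene, Icmt (0.10, edgeR adjusted p 0.0324), lost its call in 12 of 18 alternatives, and the DESeq2 Wald test gave 0 higher in the list. Ggps1, which makes geranylgeranyl diphosphate, fell from 54.5 ± 2.79 CPM to 47.6 ± 2.75 CPM (mean ± SD, n = 4) (log2 fold change -0.19 with SE 0.039, adjusted p 0.000425 in edgeR), and Pggt1b and Coq2 fell with log2 fold changes of -0.16 and -0.15. In fatty acid oxidation 5 of 19 genes rose and 3 fell, again near the shares of all tested genes (21.1% and 15.5%). Acadm (0.25), Cpt1a (0.14) and Slc25a20 (0.17) were among the rises and Hadh (-0.19), Decr1 (-0.18) and Eci1 (-0.15) were the falls. The highest log2 fold change in this list, of a gene not named here, was 0.41. Eci1 lost its call in 4 of 18 alternatives.

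**Figure D4:**
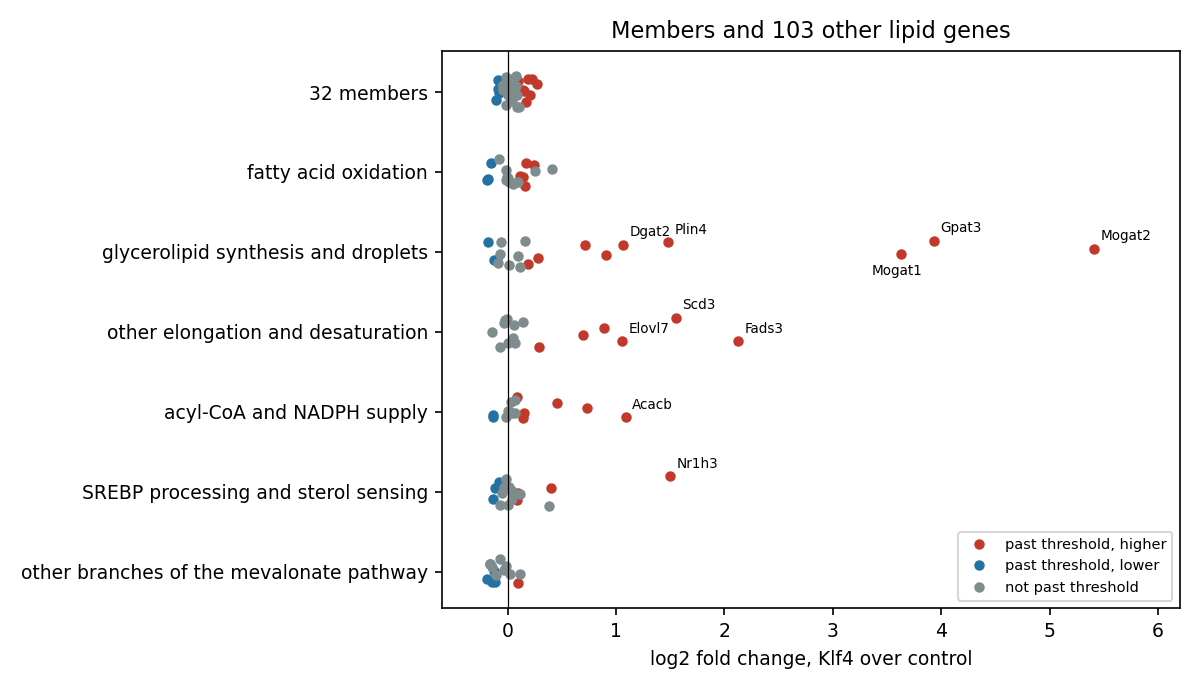
Log2 fold change of the 32 genes and of 103 other lipid genes by list (x axis, log2, Klf4-transfected over control; rows are lists, with random vertical spread), coloured by the edgeR call, with genes above 1 named. The 32 genes stay within -0.10 to 0.27, while Fads3, Scd3, Elovl7 and Dgat2 lie above 1.

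Adipocyte markers, whose cells make much fatty acid, summed to 0.678 to 1.02 CPM in control and 1.03 to 1.32 CPM in Klf4-transfected libraries, with all 6 under 1 CPM. Only 2 of the 6 had enough counts to be tested. The scarce Fabp4 rose, from 5, 1, 0 and 4 counts to 23, 24, 25 and 28 (log2 fold change 3.20, edgeR adjusted p 2.47e-05). Plin1 did not pass (log2 fold change -0.068). Hepatocyte markers summed to 534.6 to 634.3 and 552.2 to 614 CPM, nearly all of it from Ttr, which islet cells also express, and 3 of the 6 were under 1 CPM. Macrophage markers summed to 38.4 to 44.7 and 36.1 to 43.5 CPM, endothelial markers to 4.1 to 4.48 and 5.01 to 5.28 CPM, and markers of other islet cells to 59.7 to 89.5 and 56.1 to 96.7 CPM. Keratinocyte markers summed to 4.01 to 4.44 CPM in control and 22.6 to 34.4 CPM in Klf4-transfected libraries, mostly Krt14 in the latter, with Trp63 and Ivl at 0 in every library. Fibroblast markers summed to 2.61 to 3.85 CPM and 20.99 to 27.4 CPM, mostly Dcn in the latter, with Lum at 0 throughout. The part of these changes in the values of the 32 genes was not tested.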

How the data were processed

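The deposited file is 1 table of raw counts per gene for the 8 libraries, which the authors made with FastQC, STAR, featureCounts and edgeR on mm10, per the submitters' processing notes; versions, strand setting, multi-mapped reads and annotation are not given in the sources used here. Gene positions come from GENCODE M21 (GRCm38), in which every identifier was found, and promoters from RefSeq. The 32 genes, the other lists and the tests were chosen with earlier results of these data known. Counts were tested with edgeR 4.0.16 (R 4.3.3) by the quasi-likelihood F test with batch and plasmid as terms, TMM factors, filterByExpr with a minimum count of 10 (18266 genes tested) and Benjamini-Hochberg adjustment at 0.05. CPM values are TMM-scaled. SDs are over the 4 libraries of a group, batches included, while SEs and 95% intervals come from the fit. All 6 genes of the SREBP system and transport and 11 enzymes were shown library by library by rule, and Ebp because its groups did not overlap, and other lipid genes by the 3 lowest adjusted p per list and direction. Replicates of a batch differed by more than counting noise (chi-square per degree of freedom 3.96 to 5.31). Replicates of different batches differed more (15.78 to 21.1). The labels call the replicates biological without saying how the cultures were separated. With batch as a term, p-values measure the spread between these samples within batches and not the spread between batches. Replicate numbers, taken from the titles, served as pairs only in the alternative that blocked libraries by number. Same-numbered libraries deviated together with correlations of 0.614, 0.459, 0.570 and 0.516 over 10485 genes, against 0.459 to 0.574 for other numbers of the same batch. These ranges overlap, so the values do not show a pairing beyond the batch. On simulated counts for 17255 genes, few of them changed and those well counted, the test recovered 66.7% of 51 changes of 0.2 on the log2 scale. It recovered 72.4% of 58 changes of -0.2. In the data 36.6% of tested genes were called, so these rates do not give the recovery in the data. Alternatives used DESeq2 1.42.0 and limma 3.58.1.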

Additional observations from a re-analysis of the deposited data

Results flagged for a closer look

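Insig2 in control replicate 1 was 39.85 CPM, while the other 3 controls were 43.28 to 43.86 CPM, and in Klf4-transfected replicate 3 it was 54.18 CPM, while the others were 47.9 to 48.55 CPM. In each case 1 library stood apart from the other 3 by more than Dixon's criterion allows. Over the 124 groups of 4 checked, 2 were so marked, and about 6.2 would be by chance if the 4 libraries were alike. Each group holds libraries of both batches, so that rate does not hold for genes that differ by batch, and the 2 numbers cannot be compared. The rise of Insig2 kept its adjusted p under 0.05 without control replicate 1 (log2 fold change 0.18, edgeR adjusted p 0.00335) and without Klf4-transfected replicate 3 (0.17, 0.0029).

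The plasmid effect on Dgat2 was larger in batch 2 than in batch 1 by 0.61 on the log2 scale, and that on Acacb by 0.90, in the edgeR interaction test over all genes (adjusted p 1.34e-05 and 0.0235).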

How the results depend on the processing

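The 12 called genes kept their direction under every alternative run, and Insig2 kept its call in all 18. Against 8 members called higher and 4 lower, the counts were 1 and 0 without the batch term, 13 and 1 with factors from abundant genes, and 7 to 9 higher and 2 to 4 lower when 1 library was left out. With an offset for GC content and length, added after the data had been seen, 14 were higher and Scap was among the lower. With the 11 members that overlap another gene left out, also added later, 5 were higher. At an adjusted p under 0.01, 2 were lower. Over all tested genes 2828 were called lower as reported, 1159 without the batch term, 1644 with factors from abundant genes and 1696 at 0.01. Among other lipid genes the 16 falls became 7 and 8 under the first 2 of these. When libraries were blocked by replicate number (the replicate block) instead of by batch, 8 members were higher and 3 lower: Fads2 went to an adjusted p of 0.0527, and the block changed no other member's call. Of the other lipid genes named, it changed the call of Mbtps1.

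Signs turned only in genes that did not pass as reported. Mvk was -0.0047 with no filter, -0.0061 without the 10 most abundant genes in the scaling and -0.031 with the GC and length offset. That offset also gave 0.0097 for Hsd17b7, 0.040 for Sc5d, -0.062 for Srebf1 and 0.022 for Acaca, and abundant-gene factors gave 0.021 for Sc5d and 0.016 for Scap. Leaving out 1 library gave ranges across 0 for Mvk (-0.062 to 0.028), Pmvk (-0.0042 to 0.050), Hsd17b7 (-0.10 to 0.017), Sc5d (-0.054 to 0.0046), Srebf1 (-0.025 to 0.035), Insig1 (-0.0033 to 0.044), Stard4 (-0.0041 to 0.061) and Scd2 (-0.010 to 0.033). The cause of these shifts was not tested. Members had 268 counts or more per library. Depth limits the scarcest, Fdps, most: its standard error was 0.080 and its 95% interval -0.21 to 0.12.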
